A study of Mus musculus with 6 samples.

Results

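The genes described here are those that the deposited table assigns, in its KEGG pathway column, to DNA replication, mismatch repair, base excision repair or nucleotide excision repair. Of 14882 genes in the table, 85 carried at least 1 of these 4 pathway names: 35 DNA replication, 22 mismatch repair, 29 base excision repair and 43 nucleotide excision repair. The pathways share members, and 20 genes were in more than 1 of them, 6 of which were in all 4. Expression was measured by mRNA sequencing of the hypertrophic zone, in which swollen chondrocytes mineralise their matrix before bone replaces it, in the growth plate of the upper tibia. The zone was cut by laser from frozen sections of C57BL/6 mice aged 7 days, described as littermates. There were 3 wild type (WT) and 3 Adamts17-/- libraries. Adamts17 encodes a secreted metalloprotease. Which exons the allele lacks was not found in the labels. Adamts17 itself lay near the floor, at 0.246, 0.0407 and 0.397 RPKM in the 3 WT libraries and 0.0085, 0.087 and 0.026 in the 3 of Adamts17-/-, and so does not check the labels. The pathways were picked for description after differences between WT and Adamts17-/- were known, so the fold changes below describe these libraries and no test of the pathways is drawn from them.

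Before a cell divides, its genome is copied by forks at which the MCM helicase unwinds the duplex, replication protein A coats the single strands, primase and the polymerases alpha, delta and epsilon synthesise DNA, and the sliding clamp PCNA holds the polymerases in place. Excision repair borrows much of this machinery: mismatch repair removes copying errors, base excision repair removes damaged bases through glycosylases, and nucleotide excision repair removes bulky lesions through the helicases of the general transcription factor TFIIH. Replication genes are transcribed mainly in dividing cells, many of them under E2F transcription factors. In the growth plate division is a property of the columnar proliferating chondrocytes, and hypertrophic chondrocytes have left the cycle. Repair factors such as TFIIH also serve in cells that do not divide.

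The libraries were shallow and uneven. The values are read as RPKM, reads scaled by transcript length and library size. Multiplied by transcript length, each library's values had 1 common step size. Many values were fractions of a step, and of those from 1 to 20 steps 18.9% to 33.0% were whole. With the step taken as 1 read, read equivalents on listed genes ranged from 595988 to 2688293 per library, the deepest being Adamts17-/- replicate 2. A value of 0 is listed for 391 to 3153 genes per library. Of the 85 genes, 2, 25 and 26 were listed at 0 across WT replicates 1, 2 and 3, against 13, 10 and 22 across those of Adamts17-/-. Genes of TFIIH, which also serves in cells that do not divide, were among them (Gtf2h5 was listed at 0 in 1 library). A 0 is therefore given only as a listed value. A filter of at least 1 RPKM in at least 3 libraries left 57 of the 85 genes, and 9128 genes of the whole table, for a fit by limma on log2(RPKM + 1). Fold changes below are on that scale, Adamts17-/- minus WT, and understate the change of low genes. Nothing in the labels beyond the word littermates says that each library was a separate animal, so errors refer to libraries. Each ± is limma's moderated standard error (SE), in which a gene's variance is drawn towards that of genes of similar level. It is not the SE of that gene's own values alone. In bulk samples fewer cells of a type and less RNA per cell cannot be told apart.

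Adamts17-/- replicate 2 stood apart in these pathways. Over the 57 tested genes the median level on the log2(RPKM + 1) scale was 2.96, 1.70 and 1.70 across WT replicates 1, 2 and 3 in order, and 3.38, 5.01 and 1.52 across those of Adamts17-/-. The same median over all tested genes was 3.09, 2.52 and 2.16 in WT against 2.89, 3.17 and 2.15 in Adamts17-/-. The pathways thus lay above the table's median in Adamts17-/- replicates 1 and 2 and below it in the other 4 libraries. Of the 57 genes, 32 (56.1%) had their highest level in Adamts17-/- replicate 2, against 26.7% of all tested genes. The remaining 25 were highest in Adamts17-/- replicate 3 (8), replicate 1 (7), WT replicate 2 (6) or WT replicate 3 (4). WT replicate 1 was the highest library for 0 of them. It was highest for 7.54% of all tested genes, the smallest share of any library. There 73 of the 85 genes reached 1 RPKM, more than in any other library. The same held over the whole table, of which 75.4% reached 1 RPKM in WT replicate 1.

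**Figure D1:**
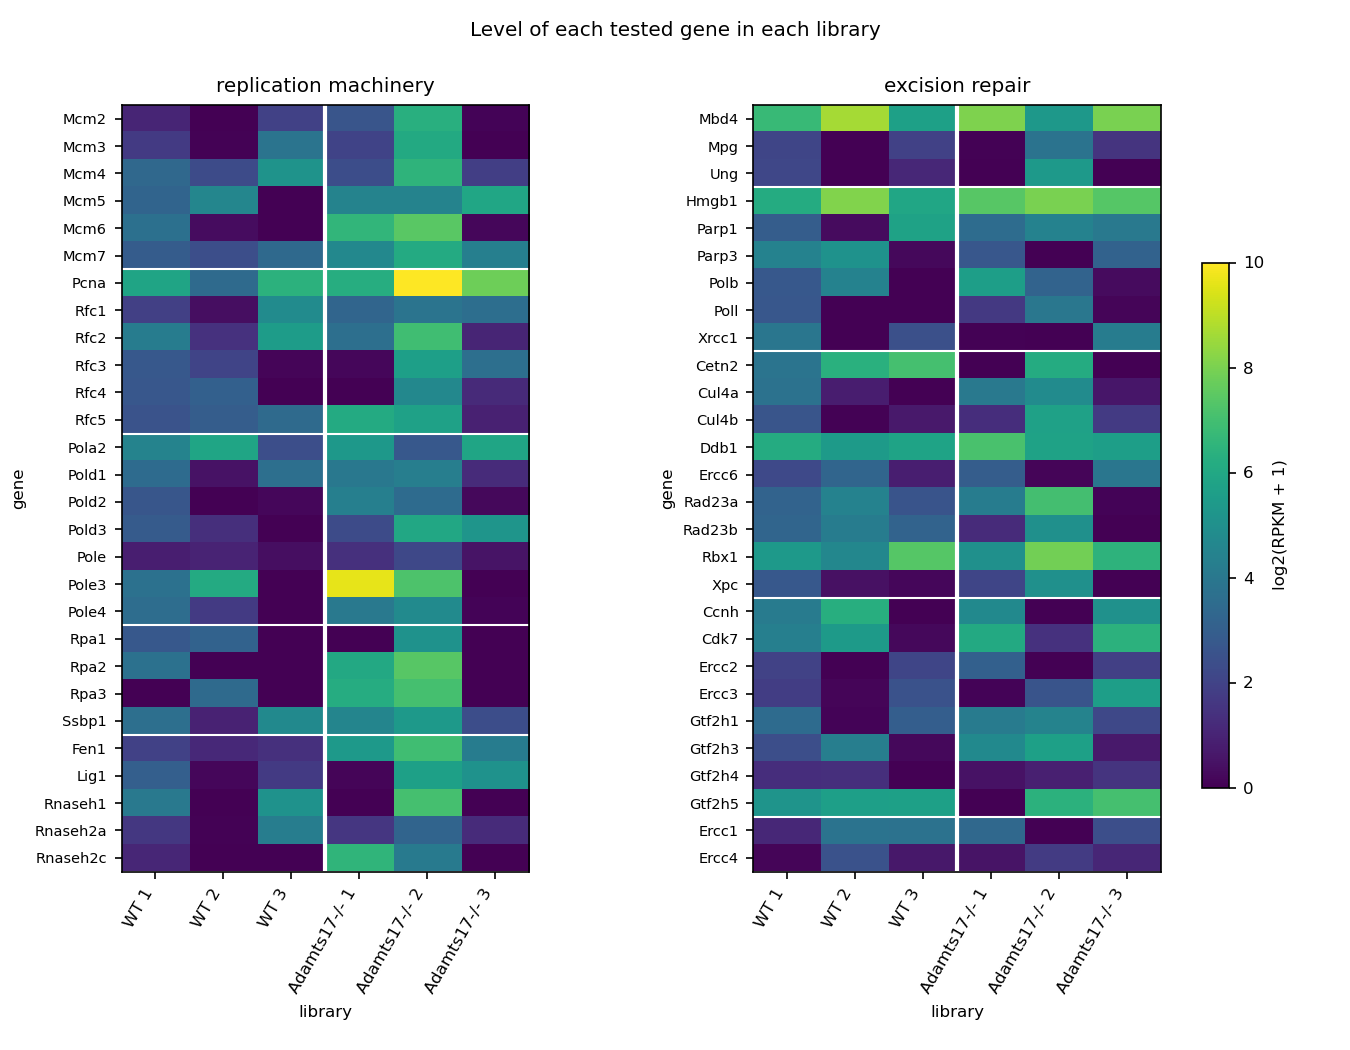
Level of the tested genes of each role group with at least 2 of them (rows, grouped by role between white lines) in each library (columns, WT left of the vertical line), as log2(RPKM + 1) on a colour scale from 0 to 10. Most genes of the replication machinery are brightest in Adamts17-/- replicate 2, where Pcna reached 1042 RPKM, and dark cells are values at or near 0.

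Between the groups, 47 of the 57 genes had a fold change above 0 and 10 below, where 52.8% of all tested genes were above 0. The median log2 fold change was 0.83, against 0.08 over all tested genes. Without Adamts17-/- replicate 2 the split was 37 above and 20 below, where 50.6% of all tested genes were above, and the median was 0.38 against 0.02. Scaling to the upper quartile gave 40 above and 17 below (70.2%, against 82.5% as deposited), and scaling to totals that omit the top 10 genes gave 38 and 19 (66.7%). These scalings moved the median of all tested genes by -0.23 and -0.33, and the pathways' median lay 0.71 and 0.68 above it. In the limma fit 0 of the 57 genes were called higher (0% of all tested genes) and 0 lower (0%) at an adjusted p under 0.05, the smallest adjusted p being 0.999. At an unadjusted p under 0.05 there were 4 (2.51% of all tested genes): Fen1, Pcna and Rnaseh2c higher (1.14%) and Cetn2 lower (1.37%). Since the pathways were picked on this contrast, nothing is read from these counts. In 2 genes, Fen1 and Mcm7, all 3 Adamts17-/- libraries lay above all 3 WT libraries (3.09% of all tested genes), and in 0 genes below (3.54%). The median within-group SD of log2(RPKM + 1) was 2.04 for the 57 genes and 1.59 over all tested genes.

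The sliding clamp had the highest mean level of the replication genes. Pcna (Entrez gene 18538, chromosome 2, 132249286 to 132253180) was at 55.8, 10.1 and 84.3 RPKM across WT replicates 1, 2 and 3, against 73.4, 1042 and 220 across those of Adamts17-/-. The groups overlapped, since Adamts17-/- replicate 1 lay below WT replicate 3, and replicate 2 was 4.73 times the next library. On the log2 scale this made a difference of 2.77 ± 1.25 (moderated SE, with 3 libraries in each group), and 1.76 ± 1.35 without Adamts17-/- replicate 2. The level of Pcna is uncertain because 1 other annotated gene holds a copy of at least 95% identity (longest match 781 bases). The clamp loader, which opens the PCNA ring onto DNA, has 5 subunits, and all 5 genes were tested. Rfc2 was at 17.2, 1.68 and 44.6 RPKM in WT against 11.6, 122 and 1.03 in Adamts17-/-, and Rfc3 at 5.83, 3.14 and 0.0961 in WT against 0.125, 49.5 and 11.7 in Adamts17-/-. In both, as in Rfc4 (24.7 RPKM), Adamts17-/- replicate 2 was the highest library and the groups overlapped. Rfc1, the large subunit, was highest in WT replicate 3 (27.0 RPKM), and Rfc5 in Adamts17-/- replicate 1 (68.7 RPKM). The log2 fold changes of the 5 loader genes ran from 0.04 (Rfc4) to 1.51 (Rfc3). Without Adamts17-/- replicate 2 those of Rfc2 and Rfc4 were below 0 (-1.37 and -1.32), and with upper-quartile scaling also (-0.13 and -0.25).

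**Figure D2:**
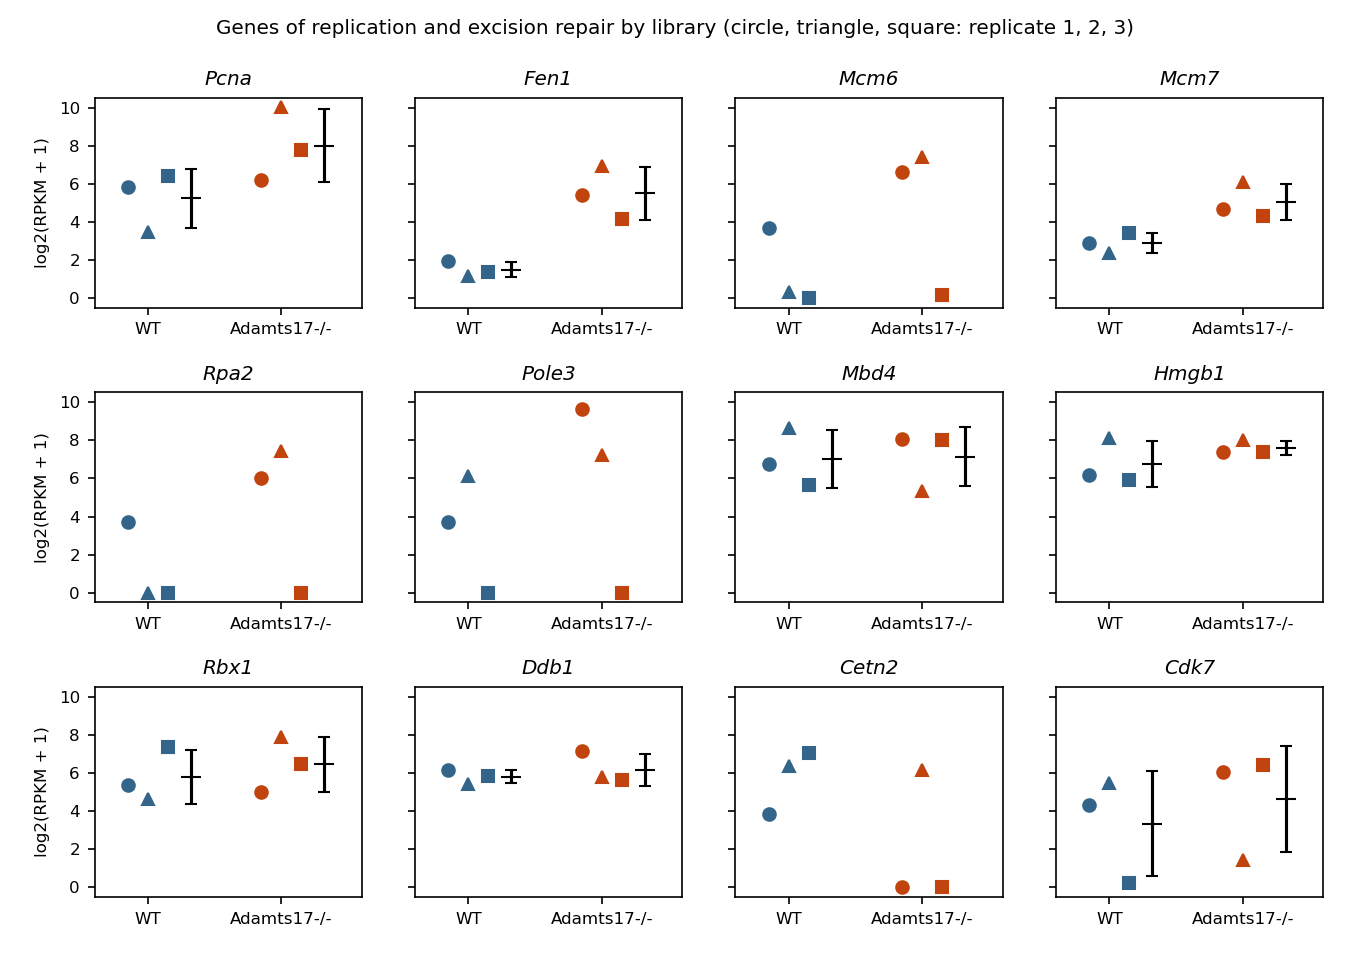
Level of 12 genes as log2(RPKM + 1) in each WT (blue) and Adamts17-/- (orange) library, with the group mean and SD (bars, n = 3) for genes that no library lists at 0. The groups are apart in Fen1 and Mcm7, and overlap in the other 10 genes. Of all tested genes, 3.09% are apart in the same direction, with Adamts17-/- higher.

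All 6 genes of the replicative helicase were tested, and 5 of them were highest in Adamts17-/- replicate 2. In Mcm2, Mcm3 and Mcm4 that library was followed by WT replicate 3 or Adamts17-/- replicate 1. Mcm2 was at 1.05, 0 and 2.77 RPKM in WT against 5.20, 78.1 and 0.0664 in Adamts17-/-. Mcm3 was at 2.24, 0.0294 and 13.4 in WT against 3.04, 66.1 and 0 in Adamts17-/-. Mcm4 was at 9.43, 3.92 and 33.8 in WT against 4.2, 90.3 and 2.62 in Adamts17-/-, and its log2 fold change was -0.02 ± 1.58. Without that library Mcm4 was at -1.48 and Mcm3 at -0.85. Mcm6 (Entrez gene 17219) was at 11.8, 0.268 and 0 RPKM in WT against 96.0, 172 and 0.135 in Adamts17-/-, high in 2 of 3 Adamts17-/- libraries and near 0 in replicate 3 (log2 fold change 3.40 ± 1.79, and 2.05 ± 1.83 without replicate 2). Mcm5 (Entrez gene 17218) was at 8.26, 23.2 and 0 in WT against 20.9, 21.5 and 59.8 in Adamts17-/-, the single helicase gene that was not highest in Adamts17-/- replicate 2. Mcm7 (Entrez gene 17220) was at 6.57, 4.25 and 9.81 in WT against 24.4, 68.1 and 19.0 in Adamts17-/-, so that the groups did not overlap, with or without replicate 2 (log2 fold change 2.12 ± 1.43, and 1.58 ± 1.6 without). The level of Mcm7 is uncertain because 1 other annotated gene holds a copy of at least 95% identity (longest match 2157 bases). The median over the 6 genes was 2.07, and 0.98 without replicate 2.

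The promoters of helicase genes are shown because E2F-type letters were more frequent in them than in the other role groups. Promoter windows (250 bases before to 50 after the transcription start) were taken from RefSeq, build GRCm38.p6, for 68 of the 85 genes. They were searched on both strands for 3 forms of the E2F site, TTTCCCGC, TTTGGCGC and TTTCGCGC, whose reverse complements can overlap by 4 bases. At least 1 form was present in 15 of the 68 genes (22.1%), in 266 of 7203 tested genes with a window (3.69%) and in 573 of all 27025 genes with a window (2.12%). By pathway the share was 37.9% in DNA replication (11 of 29) and 10.3% in the members outside it (4 of 39). By role it was 4 of 5 helicase genes, 5 of 10 polymerase and primase genes, 0 of 8 TFIIH genes and 0 of 7 genes of base excision end processing. The 250 bases before the start of 3 helicase genes follow, with E2F-type matches in capitals, and beside them that of Pcna, in which these letters were not found.
Mcm5, chr8:75109259-75109508, plus strand: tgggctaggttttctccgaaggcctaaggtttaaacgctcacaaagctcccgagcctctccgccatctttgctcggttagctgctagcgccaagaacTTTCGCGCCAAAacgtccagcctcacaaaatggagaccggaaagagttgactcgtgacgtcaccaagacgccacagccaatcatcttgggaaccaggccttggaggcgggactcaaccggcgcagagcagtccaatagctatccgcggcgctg
Mcm6, chr1:128359706-128359955, minus strand: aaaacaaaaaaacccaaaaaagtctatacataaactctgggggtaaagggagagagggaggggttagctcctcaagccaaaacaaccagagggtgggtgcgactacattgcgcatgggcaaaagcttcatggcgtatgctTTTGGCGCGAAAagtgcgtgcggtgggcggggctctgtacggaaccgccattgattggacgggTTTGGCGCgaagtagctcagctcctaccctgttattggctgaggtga
Mcm7, chr5:138171884-138172133, minus strand: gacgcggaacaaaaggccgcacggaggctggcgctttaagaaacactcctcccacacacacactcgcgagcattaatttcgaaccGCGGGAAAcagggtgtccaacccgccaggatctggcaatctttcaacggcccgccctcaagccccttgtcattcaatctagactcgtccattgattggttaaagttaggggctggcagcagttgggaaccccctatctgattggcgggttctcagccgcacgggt
Pcna, chr2:132253181-132253430, minus strand: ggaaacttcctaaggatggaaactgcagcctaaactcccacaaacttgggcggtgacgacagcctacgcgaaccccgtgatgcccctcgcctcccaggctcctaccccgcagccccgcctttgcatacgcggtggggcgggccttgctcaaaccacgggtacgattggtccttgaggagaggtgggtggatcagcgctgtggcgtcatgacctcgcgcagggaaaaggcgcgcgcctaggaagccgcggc

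In Mcm5 and Mcm6 a pair of matches overlapped into 12 letters, TTTCGCGCCAAA in Mcm5 and its reverse complement TTTGGCGCGAAA in Mcm6. This 12-letter form was looked for after the windows were seen, together with the other 12-letter overlaps that TTTCGCGC and TTTGGCGC can make. Any of these overlaps stood in the windows of 4 of the 27025 genes (0.0148%): Mcm5, Mcm6, Msh3 and Mycn. The first 3 belong to the pathways described here and held the form of Mcm5 and Mcm6. Which overlap Mycn held was not recorded. Mcm7 and Mcm3 also held matches in the 50 bases after the start, and Mcm7 has a second annotated start whose window held none. The CCAAT box stood in 57.4% of the members' windows and 42.8% of those of tested genes, and TTTGAA, the core of the cell cycle homology region, in 8.82% and 14.9%. A match of letters is not a bound site. Of the 10 tested members with an E2F-type match, 9 were highest in Adamts17-/- replicate 2 (Mcm5 was the exception), and of the 36 without a match 15 were. Their median log2 fold changes were 1.76 and 0.80 with all libraries, and 0.66 and 0.56 without Adamts17-/- replicate 2. These counts cover the 46 tested members with a window, of 57 tested. All of the 10 except Rbx1 were DNA replication genes. Of the tested DNA replication genes 71.4% were highest in that library, against 41.4% of the tested members outside DNA replication. The match and the pathway were not separated.

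**Figure D3:**
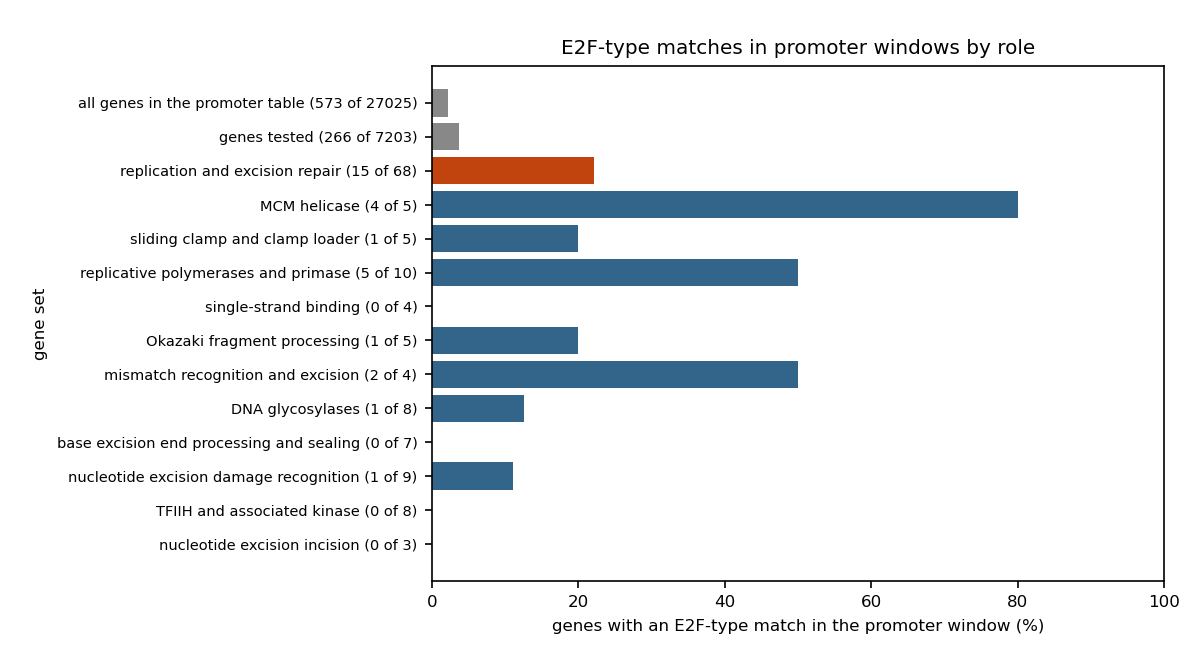
Share of genes with an E2F-type match in the promoter window (horizontal axis, percent), for all genes, tested genes, the genes described here and their role groups, with the counts beside each name. The helicase genes (4 of 5) have the highest share of the role groups, and TFIIH, base excision end processing, incision and single-strand binding genes have none.

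The polymerases were tested in part. Of 12 genes of the polymerases alpha, delta and epsilon with primase, 7 passed the filter, and all 7 had a fold change above 0 with and without Adamts17-/- replicate 2 (medians 1.22 and 1.30). Pola2 was below 0 with quantile normalization (-0.07), without WT replicate 3 (-0.50) and without Adamts17-/- replicate 3 (-0.19), and Pold1 without WT replicate 2 (-0.40). Pole3, a small accessory subunit of polymerase epsilon that also binds histones, was at 12.3, 68.0 and 0 RPKM in WT against 790, 146 and 0 in Adamts17-/-, the highest value coming from Adamts17-/- replicate 1. Pold3, an accessory subunit of polymerase delta, was at 6.41, 1.51 and 0 in WT against 3.93, 62.2 and 36.6 in Adamts17-/-. Pola2, the regulatory subunit of polymerase alpha, went the other way across libraries, with 21.1, 57.4 and 4.29 in WT against 39.8, 5.76 and 58.0 in Adamts17-/-. Among the catalytic subunits, Pole was at most 3.48 RPKM, Pola1 at most 1.07, and Pold1 at 10.2, 0.394 and 11.4 in WT against 14.9, 18.2 and 1.34 in Adamts17-/-.

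The subunits of replication protein A, which bind as a trimer, were unlike each other in which WT libraries listed them. Rpa2 was at 12.2, 0 and 0 RPKM in WT against 64.5, 170 and 0 in Adamts17-/-. Rpa3 was at 0, 9.98 and 0 in WT against 71.7, 133 and 0 in Adamts17-/-. Both were high in Adamts17-/- replicates 1 and 2 and listed at 0 in replicate 3. Rpa1, the large subunit, was at 5.75, 7.79 and 0 in WT against 0, 33.2 and 0 in Adamts17-/-, high in replicate 2 alone. The log2 fold changes were 3.24 ± 1.81, 3.26 ± 1.80 and -0.26 ± 1.5 in that order, and Ssbp1, the single-strand binding protein of mitochondria, was at 0.98 ± 1.55. All 4 genes were highest in Adamts17-/- replicate 2.

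Among the enzymes that join Okazaki fragments, Fen1 had the largest fold change of all 57 genes. Fen1, the flap endonuclease (Entrez gene 14156, chromosome 19, 10199132 to 10203943), was at 2.83, 1.24 and 1.64 RPKM in WT against 41.6, 123 and 17.1 in Adamts17-/-. The 3 WT values were close together and all 3 Adamts17-/- values lay above them, with or without replicate 2. Its log2 fold change came to 4.01 ± 1.5 (moderated SE, 3 and 3 libraries), 3.30 ± 1.70 without Adamts17-/- replicate 2, and 3.30 to 4.68 with any 1 library left out. The annotation places an antisense gene, Gm10143, over 78.8% of the exon bases of Fen1, and with a kit that does not mark strand the reads of both cannot be told apart. Lig1, the ligase that seals the fragments, was at 7.08, 0.145 and 2.25 in WT against 0.111, 49.95 and 33.6 in Adamts17-/-. Rnaseh1, which removes RNA from hybrids with DNA, was at 15.6, 0 and 33.7 in WT against 0, 130 and 0 in Adamts17-/-, and its log2 fold change was -0.71, and -3.06 without replicate 2. Rnaseh2c was at 1.08, 0 and 0 in WT against 91.9, 16.2 and 0 in Adamts17-/-, and shares 24.8% of its exon bases with Kat5 on the opposite strand. Rnaseh2a overlapped between the groups (log2 fold change 0.05 ± 1.49, and -0.16 with upper-quartile scaling).

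**Figure D4:**
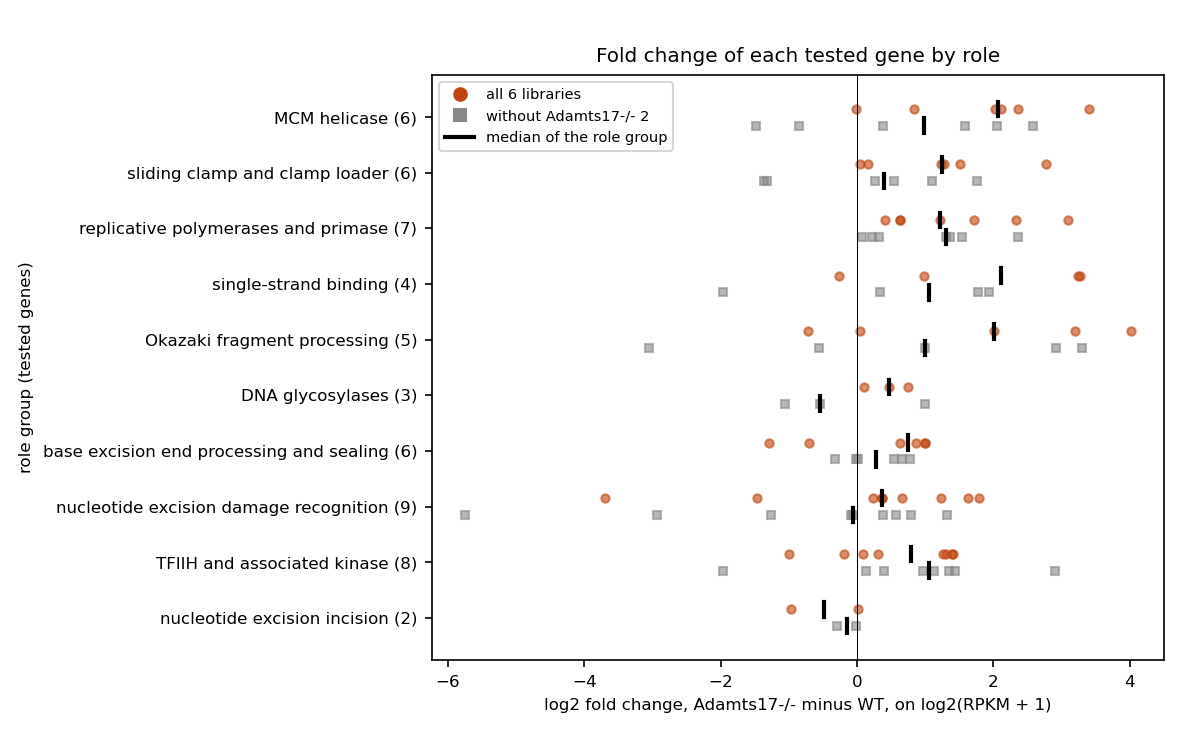
Log2 fold change, Adamts17-/- minus WT, of each tested gene in the role groups with at least 2 (number of tested genes in brackets), with all 6 libraries (orange circles) and without Adamts17-/- replicate 2 (grey squares). Black ticks are medians: that of the helicase genes lies at 2.07 and 0.98, and that of the TFIIH genes at 0.79 and 1.05.

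Mismatch repair was represented in the fit mostly by shared replication genes, with 14 of its 15 tested genes also in DNA replication. Among the genes that recognise mismatches or excise the strand, Msh3 was at most 4.92 RPKM, Msh6 at most 1.40 and Pms2 at most 2.40, and none of these 3 passed the filter. Exo1, the exonuclease, reached 31.9 RPKM in Adamts17-/- replicate 2 but no more than 0.575 in any other library.

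Base excision repair begins with glycosylases, of which 3 were tested, with a median log2 fold change of 0.46, and -0.55 without Adamts17-/- replicate 2. Mbd4, which acts at mismatches within CpG sites, was the most abundant of the 85 genes in WT replicates 1 and 2 and Adamts17-/- replicate 3, at 106, 404 and 49.9 RPKM in WT against 265, 39.7 and 253 in Adamts17-/-. It was lowest in Adamts17-/- replicate 2, and the groups overlapped (log2 fold change 0.11 ± 1.19, and -0.19 with upper-quartile scaling). Ung, the uracil glycosylase, was at 3.35, 0 and 1.16 in WT against 0.0232, 42.1 and 0 in Adamts17-/-, and Neil3, which did not pass the filter, reached 30.1 in Adamts17-/- replicate 2 but no more than 1.30 elsewhere. Hmgb1, a chromatin protein that KEGG places in this pathway, was at 71.1, 276 and 59.4 in WT against 169, 255 and 165 in Adamts17-/- (log2 fold change 0.86 ± 1.13). Its level is uncertain because 43 other annotated genes hold a copy of at least 95% identity over at least 300 bases. Among the enzymes that process and seal the gap, Parp1, a sensor of strand breaks, was at 6.77, 0.233 and 53.1 in WT against 10.5, 20.6 and 15.6 in Adamts17-/-. Polb, the gap-filling polymerase, was at 5.70, 20.9 and 0 in WT against 47.8, 8.16 and 0.213 in Adamts17-/-. The scaffold gene Xrcc1 was at 14.3, 0 and 4.37 in WT against 0.0282, 0 and 17.6 in Adamts17-/-. Of the 6 tested genes of these later steps, 1 was highest in Adamts17-/- replicate 2, and their median log2 fold change was 0.74, and 0.28 without that library.

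Genes that recognise damage in nucleotide excision repair differed widely in level. Ddb1 encodes a part of a ubiquitin ligase that recognises ultraviolet lesions. It was at 69.9, 42.5 and 55.4 RPKM in WT against 141, 53.6 and 47.8 in Adamts17-/-. Its log2 fold change was 0.37 ± 1.21, and -0.06 with totals without the top 10 genes. Rbx1, the RING subunit of that ligase and of others, was at 40.6, 23.6 and 164 in WT against 31.2, 234 and 87.5 in Adamts17-/-. Cetn2, a centrin that binds XPC and also serves at centrosomes, was the gene furthest below 0. It was at 13.3, 80.7 and 131 in WT against 0, 69.9 and 0 in Adamts17-/-, with a log2 fold change of -3.69 ± 1.64, and -5.74 ± 1.65 without replicate 2. The groups overlapped through Adamts17-/- replicate 2, and without it the remaining 2 libraries lay below all WT libraries. Without replicate 2, 2 of the 57 genes, Cetn2 and Rad23b, lay below all WT libraries (9.89% of all tested genes), and 3, Fen1, Mcm7 and Cdk7, lay above (7.7%). Xpc, the damage sensor, was at 5.78, 0.35 and 0.127 in WT against 3.22, 31.0 and 0 in Adamts17-/-.

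TFIIH, whose helicases open DNA both at promoters and at lesions, had 8 tested genes with those of its kinase. Of these, 2 were highest in Adamts17-/- replicate 2 (26.7% of all tested genes) and 4 in Adamts17-/- replicate 3 (13.8% of all tested genes). Cdk7, the kinase, was at 19.0, 43.0 and 0.169 RPKM in WT against 65.5, 1.70 and 84.4 in Adamts17-/-, so that replicate 2 was the lowest of the Adamts17-/- libraries. Its log2 fold change was 1.30 ± 1.63, and 2.90 ± 1.58 without replicate 2. Gtf2h5, the smallest subunit, was at 34.7, 48.9 and 49.9 in WT against 0, 85.9 and 131 in Adamts17-/-. Ercc3, the helicase XPB, was at 2.51, 0.0952 and 4.81 in WT against 0.0728, 4.99 and 47.3 in Adamts17-/-. Ercc2, the helicase XPD, did not exceed 7.44 RPKM, and Gtf2h1 was at 10.2, 0.0791 and 6.83 in WT against 16.7, 21.5 and 3.51 in Adamts17-/-. The incision genes Ercc1 and Ercc4 were at most 12.8 and 4.69 RPKM, both highest in WT replicate 2.

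The 28 genes that did not pass the filter were low in most libraries, and 17 of them stayed under 10 RPKM throughout. Highest in Adamts17-/- replicate 2 were 11 of the 28, where 3440 of all 14882 genes of the table and 2436 of the 9128 tested genes were. Of these, 5 were at 10 RPKM or more there and under 2 RPKM in each other library: Dna2 (15.3 RPKM), Exo1 (31.9), Neil3 (30.1), Prim1 (24.6) and Rnaseh2b (116). They encode a nuclease-helicase, the mismatch exonuclease, a glycosylase found in dividing cells, the catalytic primase subunit and a subunit of RNase H2. They were picked for this pattern after their values were seen, and the share of all genes with it was not counted. Parp2 had the opposite profile, with 113 RPKM in WT replicate 3 and at most 6.07 elsewhere.

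Genes of the same processes outside the 4 pathways were described from lists. Of 19 tested genes of origins and forks (origin recognition, GINS, licensing and chromatin assembly factors), 14 were highest in Adamts17-/- replicate 2, and 18 were above 0 and 1 below. Without that library the split was 11 and 8. Among mitotic genes and cyclins 15 of 21 were highest in it, with 20 above 0 and 1 below, and 19 and 2 without it. Ccna2, a cyclin of S phase and mitosis, was at 11.3, 2.26 and 103 RPKM in WT against 49.6, 317 and 18.4 in Adamts17-/-. Of 10 tested genes of nucleotide supply and S-phase maintenance 5 were highest in that library, with 8 above 0 and 2 below, and 6 and 4 without it. Tyms, thymidylate synthase, was at 623, 2477 and 164 RPKM in WT against 1603, 160 and 1654 in Adamts17-/-. It was about equally low in WT replicate 3 and Adamts17-/- replicate 2. Of 15 tested genes of double-strand break and crosslink repair 4 were highest in Adamts17-/- replicate 2 (26.7%, the share among all tested genes), with 10 above 0 and 5 below. Of 16 tested checkpoint genes and p53 targets 7 were, with 9 above and 7 below. None of the genes of these lists was called by limma.

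**Figure D5:**
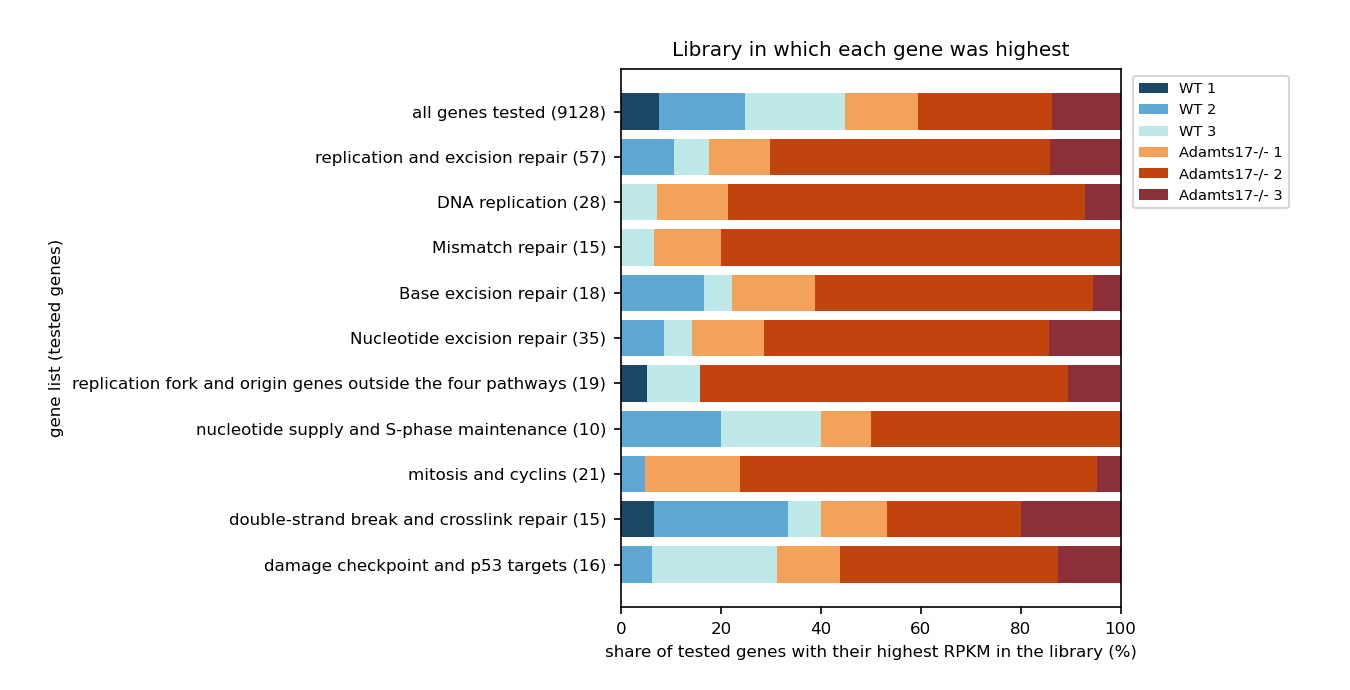
Share of tested genes (percent) that had their highest RPKM in each library, for all tested genes, the genes described here, their 4 pathways and 5 lists of related genes (number of tested genes in brackets). Adamts17-/- replicate 2 takes 26.7% of all tested genes, 56.1% of the genes described here and 71.4% of the DNA replication genes.

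Markers of blood cells were also highest in Adamts17-/- replicate 2. Summed over 12 erythroid genes, RPKM was 2903, 61660 and 4885 in WT against 17969, 229375 and 3273 in Adamts17-/-, and all 9 tested genes were highest in Adamts17-/- replicate 2. Over 14 neutrophil and myeloid genes the sum was 2351, 354 and 31.0 in WT against 2679, 69930 and 183 in Adamts17-/-, and 10 of 11 tested genes were highest there. Over 8 lymphoid genes, such as the pre-B cell gene Vpreb1, it was 459 in that library and 4.68 to 59.9 in the others, and 3 of 5 tested genes were highest there. Over 9 osteoblast genes it was 5230 there and 93.1 to 905 elsewhere, nearly all of it from the collagen genes Col1a1 (1565 RPKM) and Col1a2 (3610 RPKM), and 2 of 6 tested genes were highest in that library and 3 in WT replicate 1. Without Adamts17-/- replicate 2 the tested erythroid genes divided 5 above and 4 below, and the myeloid genes 5 and 6. Col10a1, the collagen of hypertrophic cartilage, was present in every library, at 2218, 13347 and 5866 in WT against 1437, 1507 and 4151 in Adamts17-/-. Over 14 hypertrophic chondrocyte genes, Col10a1 among them, the sum was 4378, 14852.5 and 12310 in WT against 3326, 5494 and 5838 in Adamts17-/-. Of the 13 tested, 6 had a fold change above 0 and 7 below, and 4 were highest in Adamts17-/- replicate 2. Of 16 tested markers of resting and proliferating chondrocytes, 16 had a fold change below 0 and 0 were highest in Adamts17-/- replicate 2. Over all 18 genes of that list in the table, tested or not, the summed RPKM was 1142, 4117 and 2046 in WT against 554, 509 and 1415 in Adamts17-/-. Skeletal muscle genes were highest in WT replicate 1 (9 of 9), the library in which 0 of the 57 genes and 7.54% of all tested genes were highest. Osteoclast and macrophage genes (sums of 234 to 4658) and endothelial genes (60.5 to 234) had 0 of 10 and 0 of 10 tested members highest in Adamts17-/- replicate 2. The part of these cells in the levels of the replication and repair genes was not tested.

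Medians by pathway differed by less than the spread between libraries. The pathways share that spread, as they were measured in the same libraries, so it does not measure the error of a difference between them. The median log2 fold change was 1.39 for DNA replication (28 tested genes), 1.27 for mismatch repair (15), 1.22 for nucleotide excision repair (35) and 0.93 for base excision repair (18). Without Adamts17-/- replicate 2 these were 0.77, 0.54, 0.40 and 0.60, in another order. The within-group SD of the library medians was 1.76, 1.67, 1.58 and 1.10, and no difference between pathways was tested. Since the pathways share genes, the 29 tested members outside DNA replication give the separate value, 0.37. It was 0.13 without that library and -0.03, with 14 above 0 and 15 below, without WT replicate 3. Their share highest in Adamts17-/- replicate 2 was 41.4%, against 71.4% of the DNA replication genes. Leaving out WT replicate 1 together with Adamts17-/- replicate 2, the libraries highest in muscle and in blood markers, gave 40 of 57 genes above 0 and a median of 0.75. Over all tested genes 52.6% were then above 0, with a median of 0.10. The remaining libraries still held blood markers, with erythroid sums from 3273 to 61660 RPKM.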

How the data were processed

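The authors deposited 1 table with a value per gene and library, and its name says that the values were scaled by trimmed means of M-values. Their unit is not named there. The deposited values are taken as RPKM because multiplying them by transcript length gives whole steps of 1 size per library, or fractions of a step down to 1 part in 20. Too few values of 1 to 20 reads came out whole to within 0.01 (18.9% to 33.0% per library), which left no basis for a count model. Per the labels' protocols, mRNA was linearly amplified (RiboAmp HS PLUS) before TruSeq RNA v2 library preparation, a kit that does not mark strand. The aligner, the counter and the genome build were not given in the sources used here.

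Each column took its sample from the description label and its group from the title. WT and Adamts17-/- were compared over all 9128 genes with at least 1 RPKM in at least 3 libraries by limma 3.58.1 in R 4.3.3 (log2(RPKM + 1), empirical Bayes with intensity trend, two-sided, Benjamini-Hochberg, threshold 0.05), checked on simulated data. The members and lists were chosen with earlier results of these data known. Named genes were 49 members of a hand-written list (of 51, the other 2 not analysed here), the top 3 per pathway and top 2 per role by mean level, up to 5 per direction whose groups did not overlap, and up to 2 genes per related list by mean level. Others are named for the reason given beside them. Member symbols matched RefSeq GRCm38.p6 for 85 of 85, with 80 starts within 1000 bp of the table's, and gene coordinates are the table's own. Exon overlaps came from GENCODE M21. In the erythroid list, Hbb-bt and Hbb-b2 have identical values in all 6 libraries and count as 1 gene. Of the members 33 share exon bases with another gene, and 7 have a near-identical copy elsewhere (Hmgb1, Mcm7, Pcna, Rbx1, Rfc5, Ssbp1 and Tdg). Python 3.11.15, numpy 2.4.6, pandas 2.3.3 and matplotlib 3.10.9 were used. Alternatives varied the pseudocount, the filter, the scaling and the variance model, weighted libraries, blocked on replicate number, or omitted a library. Leaving out WT replicate 1 with Adamts17-/- replicate 2 was chosen after seeing the data. Results for some members are not reported here.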

Additional observations from a re-analysis of the deposited data

How the results depend on the processing

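Over 18 alternatives the median log2 fold change of the tested members ran from 0.38 to 1.26, with 0 members called higher and 0 lower in each. Omitting single libraries spanned the same 0.38 to 1.26, lowest without Adamts17-/- replicate 2. Over the same alternatives DNA replication ran from 0.77 to 2.06, mismatch repair from 0.54 to 1.71, base excision repair from 0.51 to 1.62 and nucleotide excision repair from 0.40 to 1.26. Over all genes, limma called 0 in the fit as reported (229 at an unadjusted p under 0.05), 1 with library weights, and 0 to 5 with 1 library left out (5 without Adamts17-/- replicate 3). A replicate block on the number in the titles called 0 genes (171 at an unadjusted p under 0.05) and gave a members' median of 0.83. Same-numbered libraries deviated from their group means with correlations of -0.01, -0.35 and -0.10, so pairing by number was not seen. Of 42 named members, 15 kept their sign in all alternatives, and 745 alternative values held 89 changes of sign in the other 27. The share of members with an E2F-type promoter match was 21.7% among tested members. The share of members highest in Adamts17-/- replicate 2 was 50.6% without the filter. Depth limits single genes, since 30 of the 85 members had under 100 read equivalents over all 6 libraries together.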

Other observations

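The E2F-type promoter match can also be set beside the levels of genes outside the 4 pathways. Of 256 tested genes that are no member and have a match, 96 (37.5%) were highest in Adamts17-/- replicate 2, and of 6901 without a match 1858 (26.9%) were. In WT replicates 1, 2 and 3 the shares were 8.2%, 10.9% and 17.6% with a match, against 7.49%, 16.9% and 20.1% without. In Adamts17-/- replicates 1 and 3 they were 15.2% and 10.5% with a match, against 14.9% and 13.7% without. These are counts of genes within 6 libraries, with no test.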
